A study of Mus musculus with 26 samples.

Results

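Immediate early genes are transcribed within minutes of a stimulus, and 10 of them were looked up by gene symbol in the deposited tables of ribosome footprinting and RNA-Seq in the mouse striatum: Fos, Junb, Egr1, Egr2, Egr3, Egr4, Arc, Nr4a1, Ier2 and Dusp1. Each table listed 9 of the 10, and Ier2 was not listed. These 9 genes stood among 8576 transcripts in the GS LRRK2 TG table, 8576 in that of GS/DA LRRK2 TG and 9561 in the LRRK2 KO table.

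Transcription of immediate early genes needs no new protein: calcium, cAMP and growth factor signals reach ERK, RSK and CaM kinases, which act on factors such as SRF with its Elk partners and CREB. Their mRNAs and proteins turn over quickly. In the striatum they are widely used as markers of recent activity in spiny projection neurons, where dopamine and glutamate inputs induce them.

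Footprints of ribosomes and total RNA were sequenced from the caudate putamen of C57BL/6 mice, given in the labels as 3 months old. GS LRRK2 TG mice carried G2019S LRRK2, a Parkinson's disease allele with raised kinase activity, and GS/DA LRRK2 TG mice carried G2019S together with D1994A, which abolishes kinase activity. Both were compared with non-TG control mice of wild-type genotype, and LRRK2 KO mice were compared with WT mice. The labels list 3 footprinting and 3 RNA-Seq libraries of the non-TG control striatum, 2 and 2 of each transgenic genotype, and 3 footprinting and 2 RNA-Seq libraries each of WT and LRRK2 KO. The transgenes were of the Tet-off kind and driven by CaMKII-tTA, so they are expressed mainly in forebrain neurons, and doxycycline held them off until weaning. Each sample was pooled from the tissue of 3 mice of mixed sex, so the spread between mice was not measured. The labels list only 1 set of non-TG control libraries for both transgenic genotypes, and which of them entered each table is not given. The 2 comparisons may therefore share controls, and their values are only set side by side.

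The deposited values are group means of reads in the coding sequence, normalized by the authors within each table. For 10 of the 12 columns of means, the means could be split into the normalized reads of 2 libraries. The deeper library of a group is called library a and the other library b, names that pair nothing between groups or assays. In the GS LRRK2 TG table neither control column could be split, so that comparison has a control mean without libraries. Recovered footprinting libraries held 7516280 to 19781121 reads in the transgenic tables and 2865413 to 6032948 in the LRRK2 KO table. RNA-Seq libraries held 8696465 to 14544748 and 3151267 to 10869437 reads. Nothing in the labels says which pools of mice the recovered libraries came from, so p-values measure the spread between these libraries, which may be technical.

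Before any result, the RNA-Seq libraries of the transgenic tables stood apart from one another within a group. For transcripts whose mean was above 300, the log2 ratios of library a to b had an SD of 1.44 to 1.70 in these RNA-Seq groups, against 0.321 to 0.420 in footprinting of the same tables and 0.649 to 0.760 in the LRRK2 KO table. In RNA-Seq of the transgenic tables the ratio followed the GC content of the coding sequence across transcripts. Spearman's rho was -0.79 in GS LRRK2 TG, -0.78 in the control and 0.80 in GS/DA LRRK2 TG. In footprinting it was weaker, at 0.31, -0.43 and -0.47 in that order. In the LRRK2 KO table it was 0.54 in WT and 0.23 in LRRK2 KO for footprinting, and -0.04 and -0.27 for RNA-Seq. Transcripts are not independent, so each rho is a description. Immediate early genes are rich in GC, with a median of 60.3% (58.4% to 70.7%, highest in Egr4) against 52.8% over all transcripts with a value. Their log2 ratio of library a to library b was also far from 0 in RNA-Seq. The medians were -2.25 in GS LRRK2 TG, -2.62 in the control and 2.16 in GS/DA LRRK2 TG. The medians in footprinting were 0.83 in GS LRRK2 TG, -0.49 in the control and -0.30 in GS/DA LRRK2 TG. The part of this difference between libraries in any change below was not tested.

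Lrrk2 was read first as a check of the labels. Its normalized footprinting reads were 1445 and 1224 in the non-TG control and 7267 and 4766 in GS/DA LRRK2 TG. The GS LRRK2 TG libraries had 3320 and 7052 against a control mean of 2524. The LRRK2 KO libraries had 102 and 149.7 against 400.3 and 690.1 in WT. Footprints therefore ran in the direction of the labels in every recovered library. The log2 changes of means were 1.04 in GS LRRK2 TG, 2.17 in GS/DA LRRK2 TG and -2.12 in LRRK2 KO. The control mean of Lrrk2 itself was 2524 in the GS LRRK2 TG table and 1335 in that of GS/DA LRRK2 TG. Control means of the housekeeping gene Actb ran the other way, at 107230 and 132297. The check of GS LRRK2 TG thus rests on the higher control mean of Lrrk2, whose cause was not tested. In RNA-Seq, LRRK2 KO libraries had 423 and 270.0 Lrrk2 reads against 1278 and 733 in WT, again without overlap. In RNA-Seq of the transgenic tables, however, Lrrk2 did not separate the groups: controls had 5233 and 560.2 reads and GS/DA LRRK2 TG had 404 and 5038, while GS LRRK2 TG had 3550 and 214 around a control mean of 2105. Within the RNA-Seq pairs matched below, the log2 change of Lrrk2 was -0.05 and -0.47. Lrrk2 RNA-Seq thus gives no check of the labels of the transgenic RNA-Seq libraries. Whether each of them belongs to the group it is averaged in cannot be told from Lrrk2. According to the paper, part of the lysate was blotted to check transgene expression, and the supernatant was divided between footprinting and RNA-Seq. Those blots were not among the data read here.

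The tissue was checked against its markers. Of 12 symbols for markers of striatal spiny neurons, 11 were listed in each table, and the 12th, Penk1, is an older symbol of Penk, which was listed. Of these the most abundant was Ppp1r1b, which encodes DARPP-32. None of the 6 endothelial markers was listed, namely Cldn5, Flt1, Pecam1, Tek, Slco1a4 and Cdh5. According to the paper, transcripts with few reads were left out, so a missing symbol does not show that its cell type was absent. Camk2a and Hras, from the upstream genes used below, were not listed either.

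Per kilobase of coding sequence, footprints were most abundant on Egr1 in every control. In the control of the GS/DA table, the means per kilobase ran from 7118 for Egr1 through 2545 for Egr3, 2183 for Junb, 2023 for Egr4, 1902 for Nr4a1 and 1695 for Arc to 661 for Dusp1, 463 for Fos and 382 for Egr2. The libraries of Egr1 lay above those of Egr3, those of Arc above those of Dusp1 and those of Dusp1 above those of Fos. From Egr3 down to Arc each neighbour overlapped the next, as did Fos and Egr2, so those neighbours did not differ beyond their spread. In WT, normalized separately, the order was Egr1 (1927), Arc (949), Junb (887), Egr3 (699), Nr4a1 (491), Egr4 (449), Dusp1 (279), Fos (237) and Egr2 (108). There the pairs Arc and Junb, Junb and Egr3, Nr4a1 and Egr4, and Dusp1 and Fos overlapped. Control RNA-Seq levels per kilobase were also highest for Egr1, at 4323 and 4558 in the non-TG control of the GS and GS/DA tables and at 2535 in WT. In the GS/DA table its libraries overlapped those of Nr4a1, the next in order, and in WT they lay above those of Egr3, the next there.

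TE is the ratio of footprints to RNA-Seq, and the median log2 TE of the 9 genes in the controls was 0.34 and 0.67 in the non-TG control of the GS and GS/DA tables and -0.17 in WT, against -0.17, 0.04 and -0.64 over all transcripts. The lowest of the 9 in each of these controls was Nr4a1, at -0.39, 0.08 and -0.91, which in the GS table and in WT was below the median of all transcripts. The contrast with all transcripts depended on the RNA-Seq library, a comparison added after seeing the data: against library a of the GS/DA control alone the median was 2.11 for the 9 genes and 0.11 for all, and against library b it was -0.01 and 0.07. In WT it was 0.26 against -0.61 with library a and -0.54 against -0.64 with library b. The predicted folding energy of the 5′UTR had a median of -74.8 kcal/mol, from -140.6 for Egr2 to -41.6 for Dusp1, against -91.2 in the transgenic tables as a whole and -90.4 in the LRRK2 KO table.

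Did footprints on immediate early genes differ in the transgenic mice? All 9 were lower than the control in both comparisons, with a median log2 change of -0.32 in GS LRRK2 TG and -0.39 in GS/DA LRRK2 TG, against 0.00 and -0.01 over all transcripts. Of all transcripts, 48.8% and 52.5% were lower. As the means carry no replicates, a log2 change of 0.5 or more in size was taken as the limit for a call. In GS LRRK2 TG, 2 of the 9 were at -0.5 or below, Egr4 and Nr4a1, as were 0.198% of all transcripts. In GS/DA LRRK2 TG there were 4 of 9, Egr1, Egr2, Egr4 and Nr4a1, beside 0.326% of all transcripts. Fewer cells of a type and less RNA per cell cannot be told apart in bulk tissue. The count in GS LRRK2 TG was 5 without library a of GS LRRK2 TG (3.46% of all transcripts) and 0 without library b (1.19%), where Egr4 turned from -0.52 to 0.03. The count in GS/DA LRRK2 TG was 2 without library a of GS/DA LRRK2 TG (1.32%).

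**Figure D1:**
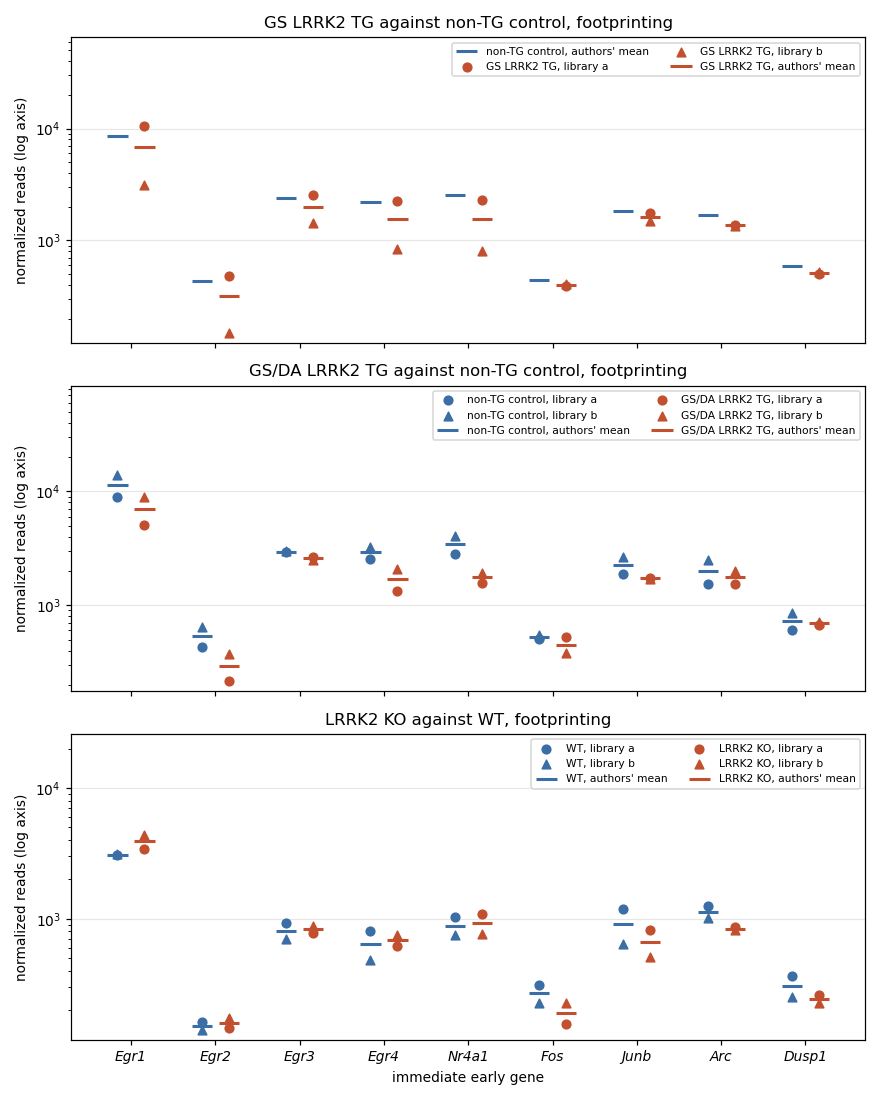
Normalized footprinting reads (vertical, log axis) of the 9 listed immediate early genes in each recovered library (circles for library a, triangles for library b) and in the authors' means (bars), with 1 panel per comparison. Nr4a1, Egr4 and Egr2 have both GS/DA LRRK2 TG libraries below both control libraries, and the GS LRRK2 TG libraries of Egr1 are 10596 and 3100 around a control mean of 8574.

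Nr4a1 encodes an orphan nuclear receptor, also called Nur77, that is induced through CREB and MEF2 (mm9 chr15:101097277-101105223, plus strand). Its normalized footprinting reads were 2812 and 4058 in the control and 1572 and 1939 in GS/DA LRRK2 TG. Both transgenic libraries lay below both control libraries. The log2 change of the means was -0.97, and 0.0350% of transcripts had a lower one. In GS LRRK2 TG, Nr4a1 had 2322 and 799.5 reads against a control mean of 2574. Both libraries lay below that mean, library a only slightly and library b far below, and the log2 change of -0.72 was undercut by 0.0933% of transcripts.

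The Egr genes encode zinc finger transcription factors that bind GC-rich sites. Egr1 (mm9 chr18:35020861-35024638, plus strand) had 8996 and 13811 reads in the control and 5044 and 9006 in GS/DA LRRK2 TG. The higher transgenic library reached the lower control library, so the groups overlapped, and the log2 change of the means was -0.70. Egr2 (mm9 chr10:66998223-67004936, plus strand), the least abundant of the family, had 434 and 645 reads in the control and 216 and 372 in GS/DA LRRK2 TG. Its groups did not overlap, with a log2 change of -0.88. Egr4 (mm9 chr6:85461125-85463583, minus strand) had 2556 and 3257 reads in the control and 1330.1 and 2079 in GS/DA LRRK2 TG. Again the transgenic libraries were both lower, with a log2 change of -0.77. Egr3, which is itself a target of NMDA receptor and ERK signalling, had 2947 and 2977 against 2648 and 2518 reads. Its groups were close but did not overlap, and the log2 change was -0.20.

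In GS LRRK2 TG the Egr genes split between the libraries. Egr1 had 10596 reads in library a and 3100 in library b, on either side of the control mean of 8574. Egr2 had 484 and 149.9 around 436. Egr4 had 2269.6 and 834 around 2218. For these genes library a was at or above the control mean and library b far below it. Egr3 behaved likewise, with 2558 and 1436 around 2397. The log2 changes of the means were -0.32 for Egr1, -0.46 for Egr2, -0.52 for Egr4 and -0.26 for Egr3, and their sign against the control therefore depended on the library.

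Fos and Junb encode subunits of the AP-1 transcription factor. Fos (mm9 chr12:86814840-86818223, plus strand) had 508 and 551 reads in the control and 523 and 377 in GS/DA LRRK2 TG, which overlapped. Junb had 1875 and 2643 in the control and 1751 and 1707 in GS/DA LRRK2 TG, without overlap. In GS LRRK2 TG, Fos had 389 and 412 reads against a control mean of 447. Junb there had 1763 and 1482 against 1851, so all 4 of these library values lay below their control means. The log2 changes were small beside those of Nr4a1: -0.24 for Fos and -0.39 for Junb in GS/DA LRRK2 TG, and -0.16 and -0.19 in GS LRRK2 TG.

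Arc and Dusp1 act outside the nucleus or on signalling itself. Arc encodes a cytoskeleton-associated protein that takes part in AMPA receptor endocytosis, and its mRNA travels to dendrites. It had 1539 and 2499 reads in the control and 1525 and 2015 in GS/DA LRRK2 TG, and 1367 and 1355 in GS LRRK2 TG against a control mean of 1700. The first pair of groups overlapped, and both GS LRRK2 TG libraries lay below the mean. Dusp1 encodes a phosphatase that inactivates MAP kinases. Its reads in the control, 607 and 852, enclosed the 677 and 707 of GS/DA LRRK2 TG, whereas GS LRRK2 TG had 498 and 524 against 591. Log2 changes ran from -0.32 for Arc in GS LRRK2 TG to -0.08 for Dusp1 in GS/DA LRRK2 TG.

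Counted over libraries, 5 of 9 genes had both GS/DA LRRK2 TG footprinting libraries below both controls (Egr2, Egr3, Egr4, Junb and Nr4a1), against 12.2% of all transcripts resolved in all 4 libraries. None had both above. For GS LRRK2 TG, both libraries lay below the control mean for 5 of 9 (Arc, Dusp1, Fos, Junb and Nr4a1), against 20.8% of transcripts. Only Nr4a1 and Junb stood in both of these counts.

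A test over libraries was possible for GS/DA LRRK2 TG and not for GS LRRK2 TG. limma called 0 of 8445 transcripts (0%) for a footprint change at a Benjamini-Hochberg adjusted p under 0.05, and 141 (1.67%) at an unadjusted p under 0.05. The 141 held 3 of the 9 immediate early genes: Nr4a1 (log2 change -0.95, SE 0.20, p 0.00381), Egr4 (-0.79, SE 0.24, p 0.0161) and Egr2 (-0.88, SE 0.30, p 0.0275), each with an adjusted p of 1.00 by limma with Benjamini-Hochberg. Lrrk2 itself had a log2 change of 2.14 and an adjusted p of 0.608 by limma with Benjamini-Hochberg. Leaving out 1 library changed the number of transcripts called by limma from 0 to 42 (without control library a), 24 (without control library b), 2 (without GS/DA LRRK2 TG library a) or 19 (without GS/DA LRRK2 TG library b).

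Differences between libraries recurred across groups, and libraries were therefore also matched by them. In footprinting, the log2 ratio of library a to b had a Spearman's rho of 0.74 between control and GS/DA LRRK2 TG over 8445 transcripts, which matches a with a. With the matched libraries as a block, limma called 155 transcripts at a Benjamini-Hochberg adjusted p under 0.05, 76 of them lower (0.900% of those tested). Among the 76 were Nr4a1 (log2 change -0.95, SE 0.07, adjusted p 8.33e-05), Egr1 (-0.72, SE 0.06, adjusted p 0.000125), Egr4 (-0.79, SE 0.08, adjusted p 0.000463) and Egr2 (-0.88, SE 0.09, adjusted p 0.000909), all lower in 2 of 2 pairs. The other 5 genes had adjusted p-values of 0.129 to 0.846 by the same limma fit. This matching was read from the same values that it tests and no label gives it, and with the opposite matching limma called 6 transcripts. Within matched pairs the log2 changes were -0.84 and -1.07 for Nr4a1, -0.83 and -0.62 for Egr1, -0.94 and -0.65 for Egr4, and -1.01 and -0.79 for Egr2. Under the opposite matching they were -0.54 and -1.37 for Nr4a1, 0.00 and -1.45 for Egr1, -0.30 and -1.29 for Egr4, and -0.22 and -1.58 for Egr2. Matched pairs were both lower for 7 of the 9 genes, all but Dusp1 and Fos, against 32.3% of transcripts.

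RNA-Seq of the same tissue ran in the same direction in the means. All 9 genes were lower in both transgenic comparisons, with a median log2 change of -0.38 in GS LRRK2 TG and -0.41 in GS/DA LRRK2 TG, against -0.02 and 0.06 over all transcripts, 55.7% and 35.3% of which were lower. When the log2 values of the libraries were averaged instead, Egr3 and Dusp1 were at 0.05 and 0.09 in GS/DA LRRK2 TG. At -0.5 or below stood Egr2 and Nr4a1 in GS LRRK2 TG, 2 of 9 beside 2.72% of all transcripts. The count in GS/DA LRRK2 TG RNA-Seq was 4 of 9, Egr1, Egr2, Egr4 and Nr4a1, beside 0.257% of all transcripts.

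Egr2 was the gene whose RNA-Seq libraries separated. It had 398 and 399.7 normalized RNA-Seq reads in the control and 251 and 132 in GS/DA LRRK2 TG, without overlap. Its log2 change of -1.06 was undercut by 0.0117% of transcripts, and the smaller change in GS LRRK2 TG, -0.57, came from 131 and 339 reads against a control mean of 348. Both transgenic libraries were below the controls for this 1 gene of 9 in GS/DA LRRK2 TG (1.60% of transcripts) and, against the control mean, for this 1 of 9 in GS LRRK2 TG (8.27% of transcripts). For Nr4a1 the control libraries had 878 and 5628 reads and those of GS/DA LRRK2 TG 3329 and 516, which overlapped widely. Egr1 ranged from 1103 to 13501 in the control and from 743 to 8493 in GS/DA LRRK2 TG. Egr4 ranged from 104 to 3053 and from 53.0 to 1935. The spread within a group was thus far larger than the log2 changes of the means, which were -0.76 for Nr4a1, -0.66 for Egr1 and -0.67 for Egr4.

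Direction and count in RNA-Seq both depended on which library was left out. Without library b of GS LRRK2 TG, 9 genes were at -0.5 or below in that comparison (30.2% of all transcripts). Without library a of GS LRRK2 TG, 0 were at -0.5 or below (34.0% of all) and 2 at 0.5 or above (22.4%), and Nr4a1 turned from -0.51 to 0.38. For GS/DA LRRK2 TG, 9 genes were at -0.5 or below without library a of the control (14.3% of all) and 9 without library a of GS/DA LRRK2 TG (29.0%). Without library b of the control, 1 was at -0.5 or below (12.2% of all) and 6 at 0.5 or above (29.5%), with Egr1 at 2.07, Egr4 at 3.26 and Nr4a1 at 1.13. Without library b of GS/DA LRRK2 TG, 1 was at -0.5 or below (31.7% of all) and 2 at 0.5 or above (25.1%), with Egr1 at 0.22, Egr4 at 0.29 and Nr4a1 at 0.03. Of the 4 genes only Egr2 stayed at -0.5 or below in GS/DA LRRK2 TG whichever library was left out.

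Tests of RNA-Seq in GS/DA LRRK2 TG called none of the 9 genes. limma called 0 of 8519 transcripts for an RNA-Seq change in GS/DA LRRK2 TG at an adjusted p under 0.05 (0%), and 0 at an unadjusted p under 0.05. The RNA-Seq libraries of control and GS/DA LRRK2 TG matched crosswise, a with b, at a rho of -0.98. In these matched pairs 7 of the 9 genes were lower, all but Dusp1 and Egr3, against 16.2% of transcripts. For Nr4a1 the log2 changes within matched pairs were -0.77 and -0.76, for Egr1 -0.57 and -0.67, for Egr4 -0.97 and -0.66, and for Egr2 -1.59 and -0.67. Under the opposite matching those of Nr4a1 were 1.92 and -3.45 and those of Egr4 4.22 and -5.85. With the matched block limma called 1 transcript (0.0117%), none of the 9 genes, at a Benjamini-Hochberg adjusted p under 0.05, and 0 with the opposite matching. The lowest adjusted p of the 9 genes in the matched limma fit was 0.324, for Nr4a1. At an unadjusted p under 0.05 that fit held 124 of 8519 transcripts, among them 6 of the 9 genes.

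**Figure D2:**
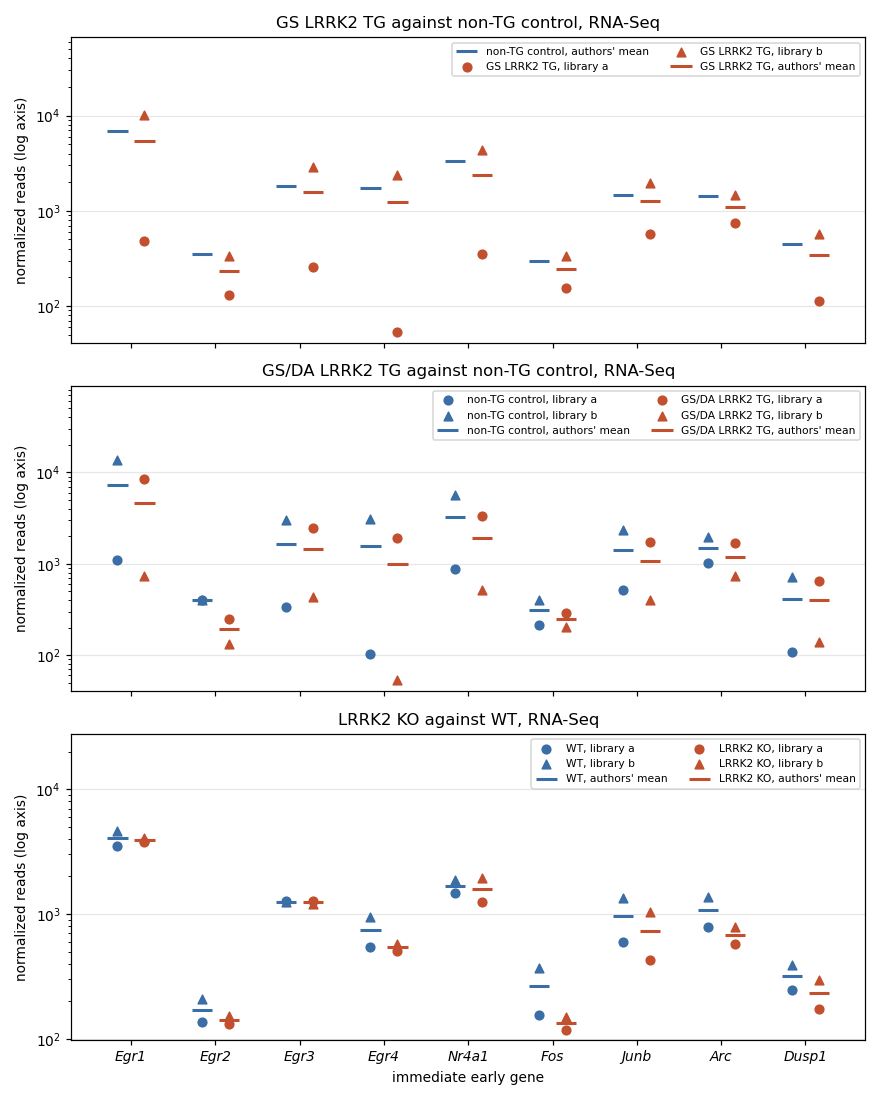
Normalized RNA-Seq reads (vertical, log axis) of the 9 listed immediate early genes in each recovered library (circles for library a, triangles for library b) and in the authors' means (bars), with 1 panel per comparison. In the transgenic tables libraries of 1 group lie far apart, as for Egr4 with 104 and 3053 in the control, while those of the LRRK2 KO table lie closer.

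In the means, footprints and RNA-Seq of the 9 genes differed from the control by similar amounts. Across the 9 genes the log2 change of TE ran from -0.22 for Nr4a1 to 0.17 for Dusp1 in GS LRRK2 TG and from -0.21 for Nr4a1 to 0.18 for Egr2 in GS/DA LRRK2 TG. The medians were 0.04 and 0.01, against 0.02 and -0.05 over all transcripts. None of the 9 reached 0.5 in size in either comparison, against 0.257% of all transcripts lower and 3.32% higher in GS LRRK2 TG, and 2.31% lower and 0.0700% higher in GS/DA LRRK2 TG. limma, with genotype and assay interacting, called 0 of 8425 transcripts for TE in GS/DA LRRK2 TG at an adjusted p under 0.05 (0%), and 0 at an unadjusted p under 0.05. The matched block likewise gave 0 calls by limma (0%), and 22 at an unadjusted p under 0.05, none of the 9 genes. TE rested on the libraries, in direction as well as count. In GS LRRK2 TG, 5 genes were at -0.5 or below without footprinting library a of GS LRRK2 TG (2.53% of all transcripts) and 6 without its RNA-Seq library a (24.4%). In turn 3 were at 0.5 or above without its footprinting library b (4.95%) and 9 without its RNA-Seq library b (29.9%). For GS/DA LRRK2 TG, 7 were at 0.5 or above without RNA-Seq library a of the control (15.3%) and 8 without RNA-Seq library a of GS/DA LRRK2 TG (29.3%). Conversely 6 were at -0.5 or below without RNA-Seq library b of the control (28.7%) and 6 without RNA-Seq library b of GS/DA LRRK2 TG (24.5%). In footprinting, 1 was at 0.5 or above without library b of the control (0.402%) or library a of GS/DA LRRK2 TG (0.305%), and 1 at -0.5 or below without library b of GS/DA LRRK2 TG (2.68%).

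**Figure D3:**
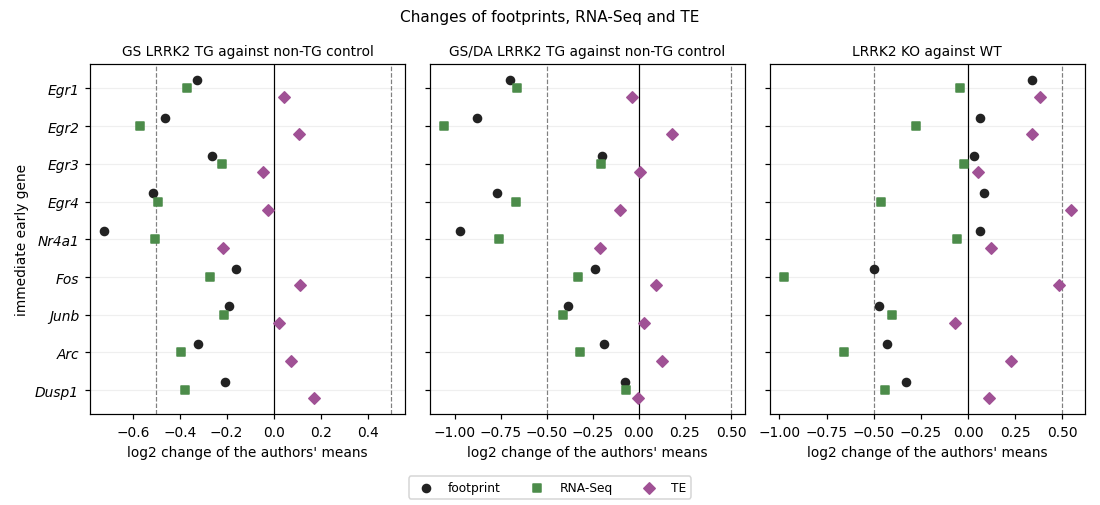
Log2 change of the authors' means (horizontal) of footprints, RNA-Seq and TE for each listed immediate early gene, with 1 panel per comparison and dashed lines at 0.5 in size. In GS/DA LRRK2 TG, Nr4a1 is at -0.97 for footprints and -0.76 for RNA-Seq, and in LRRK2 KO, Fos is at -0.98 for RNA-Seq.

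Did loss of LRRK2 move the same genes? In LRRK2 KO against WT, the footprints of the 9 genes were mixed: 4 were lower, 5 higher, with a median log2 change of 0.03 against 0.02 over all transcripts, 45.6% of which were lower. None of the 9 reached 0.5 in size, against 1.07% of transcripts at -0.5 or below and 1.00% at 0.5 or above, although Fos, at -0.496, came close. The 5 higher genes were the Egr family and Nr4a1, from 0.03 for Egr3 to 0.34 for Egr1. The 4 lower ones were Fos, Junb (-0.47), Arc (-0.43) and Dusp1 (-0.33). Over libraries, 2 of 9 genes, Arc and Fos, had both LRRK2 KO libraries below both WT libraries (6.40% of transcripts), and 1 of 9, Egr1, had both above (6.21%). Leaving out 1 library put 1 gene at 0.5 or above without library a of WT (16.8% of all transcripts), and 4 at -0.5 or below without library b of WT (9.91%), 1 without library a of LRRK2 KO (17.4%) and 1 without library b of LRRK2 KO (3.19%).

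Fos had 311.5 and 229 normalized footprinting reads in WT and 158 and 225 in LRRK2 KO. The higher LRRK2 KO library was just below the lower WT library. Arc (mm9 chr15:74499513-74503000, minus strand) had 1243 and 1018 reads in WT and 866 and 815.5 in LRRK2 KO, a clearer separation, with a log2 change of -0.43. Egr1 had 3058 and 3115 in WT and 3443 and 4361 in LRRK2 KO. Both LRRK2 KO libraries lay above WT for this gene. Junb had 1191 and 645 against 815 and 509, and Dusp1 had 364 and 252 against 264 and 227, both with overlap. Nr4a1, the gene with the lowest footprint change in both transgenic comparisons, had 1028 and 746 reads in WT and 1086 and 765 in LRRK2 KO, with a log2 change of 0.06 and overlapping groups. Egr2, Egr3 and Egr4 overlapped as well, with log2 changes of 0.06, 0.03 and 0.09.

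RNA-Seq in LRRK2 KO was lower in the mean for all 9 genes, with a median log2 change of -0.40 against 0.01 over all transcripts, 48.7% of which were lower. Among the lists reported here, others were lower as well. Housekeeping genes had a median of -0.33, choroid plexus and meninges markers of -0.39, blood markers of -0.29 and astrocyte markers of -0.18. Late response genes of neurons had a median of -0.25, with 2 of 7 at -0.5 or below, Nptx1 (-0.71) and Pcsk1 (-0.53). Other early response genes had a median of -0.02, upstream kinases and factors 0.01 and spiny neuron markers 0.03. At -0.5 or below stood Fos and Arc, 2 of 9 beside 2.51% of transcripts. Fos had 154 and 372 RNA-Seq reads in WT and 118 and 149.6 in LRRK2 KO. Its groups did not overlap, though the gap between the nearest libraries was small, and its log2 change of the means was -0.98. Fos was the 1 gene of 9 in that position (7.03% of transcripts). Arc had 788 and 1366 reads in WT and 576 and 792 in LRRK2 KO, a change of -0.66 with a slight overlap. The remaining log2 changes ran from -0.46 for Egr4, with 540.4 and 953 against 508 and 578 reads, to -0.02 for Egr3. The count at -0.5 or below was 6 without library a of WT (13.1% of all transcripts), 0 without library b of WT (2.33%), 1 without library a of LRRK2 KO (10.2%) and 5 without library b of LRRK2 KO (11.1%).

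TE in LRRK2 KO had a median log2 change of 0.23 over the 9 genes against 0.02 over all transcripts, from -0.07 for Junb to 0.54 for Egr4. Housekeeping genes (0.36), choroid plexus and meninges markers (0.36) and late response genes (0.35) had higher medians. Lower ones were found for other early response genes (0.15), upstream kinases and factors (0.14), spiny neuron markers (0.11), astrocyte markers (0.10) and blood markers (-0.35). Egr4 was the 1 gene of 9 at 0.5 or above, beside 4.06% of transcripts, and Fos followed at 0.48. That count was 2 without footprinting library a of WT (17.5% of all transcripts), 0 without footprinting library b of WT (12.6%), 3 without footprinting library a of LRRK2 KO (6.68%) and 0 without footprinting library b of LRRK2 KO (13.5%). It was 5 without RNA-Seq library a of WT (14.7%) and 4 without RNA-Seq library b of LRRK2 KO (12.4%). Without RNA-Seq library b of WT or RNA-Seq library a of LRRK2 KO it was 0 (4.75% and 12.3%), and 1 gene was at -0.5 or below (7.43% and 7.18%).

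limma called no change in LRRK2 KO at a Benjamini-Hochberg adjusted p under 0.05: 0 of 9553 transcripts (0%) for footprints, 0 of 9536 (0%) for RNA-Seq and 0 of 9533 (0%) for TE. At an unadjusted p under 0.05 the counts were 7, 7 and 2, with 0 of the 9 genes in each. Libraries matched a with a in both assays, at a rho of 0.76 in footprinting and 0.68 in RNA-Seq, again read from the values. With these pairs as a block limma called 10 transcripts (0.105%) for footprints, 12 (0.126%) for RNA-Seq and 0 (0%) for TE. At an unadjusted p under 0.05 the block gave 254, 409 and 173 transcripts, with 4, 3 and 0 of the 9 genes among them. None of the 9 genes was called at an adjusted p under 0.05, where the opposite matching gave 0 transcripts in each. The lowest adjusted p by limma with the block was 0.0676, for Fos RNA-Seq (log2 change -0.81, SE 0.21, lower in 2 of 2 pairs). In matched pairs of footprinting libraries 4 of 9 genes were lower in both, Arc, Dusp1, Fos and Junb, against 19.4% of transcripts, and 2 of 9 higher in both, Egr1 and Nr4a1, against 24.2%. In matched pairs 6 of 9 genes were lower in RNA-Seq, Arc, Dusp1, Egr2, Egr4, Fos and Junb, against 23.6% of transcripts. Whether the changes in LRRK2 KO differ from those in the transgenic mice was not tested, since the tables were normalized separately.

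Other early response genes, from a list of 43, were looked at in the same way. Of these, 23 were listed in the transgenic tables and 28 in the LRRK2 KO table, and the median log2 footprint changes were -0.14 in GS LRRK2 TG, -0.21 in GS/DA LRRK2 TG and 0.05 in LRRK2 KO. For GS LRRK2 TG, 1 of the 23 was at -0.5 or below (0.198% of all transcripts) and 0 at 0.5 or above (12 of 8576 transcripts). That gene was Nr4a2, a relative of Nr4a1, at -0.77. For GS/DA LRRK2 TG, 6 were lower (0.326% of all transcripts) and 1 higher (42 of 8576 transcripts). The lower ones were Nr4a3 (-0.94), another relative of Nr4a1, Fosl2 (-0.88) and Fosb (-0.56), both AP-1 subunits, Rgs2 (-0.60), a brake on G protein signalling, the phosphatase Dusp14 (-0.56) and Tiparp (-0.54). Nr4a2 was the higher one, at 1.00, so it lay on opposite sides in the transgenic comparisons. Its footprints were 75.3 and 274 in GS LRRK2 TG against a control mean of 298, and 705 and 445 in GS/DA LRRK2 TG against 357 and 217 in the control. Both GS/DA LRRK2 TG libraries were above both controls, and both GS LRRK2 TG libraries were below the mean.

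Nr4a3 had 996.5 and 1167 footprints in the control and 397 and 730.3 in GS/DA LRRK2 TG. Fosl2 had 712 and 929 in the control and 324 and 567 in GS/DA LRRK2 TG. Neither gene's groups overlapped. In LRRK2 KO, 1 of 28 was at -0.5 or below (1.07% of all transcripts), the activity-dependent factor Npas4 (-0.82). There 5 were at 0.5 or above (1.00% of all transcripts): the kinase Sgk1 (1.10), Nr4a3 (1.02), Fosl2 (0.72), Nr4a2 (0.66) and Fosb (0.53). Nr4a3 had 88.8 and 149.2 footprints in WT and 201 and 283 in LRRK2 KO. Sgk1 had 322 and 553 in WT and 1003 and 877 in LRRK2 KO, the wider of these separations. For Nr4a3, Fosl2 and Fosb the means of LRRK2 KO and of GS/DA LRRK2 TG thus lay on opposite sides of their controls, a difference between tables that was not tested.

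Genes that act before and after the immediate early genes were read in the same way. Of 35 upstream kinases and transcription factors, 29 were listed in the transgenic tables and 31 in the LRRK2 KO table. In footprints 0 of them passed 0.5 in size in any of the 3 comparisons. Of all transcripts, 17 were at -0.5 or below and 12 at 0.5 or above in GS LRRK2 TG (of 8576). The numbers were 28 and 42 in GS/DA LRRK2 TG (of 8576) and 102 and 96 in LRRK2 KO (of 9561). A count of 0 is thus near the share of all transcripts. The median log2 footprint changes of the upstream genes were 0.00 in GS LRRK2 TG, -0.04 in GS/DA LRRK2 TG and 0.08 in LRRK2 KO. In the same order Srf, the serum response factor, was at -0.33, -0.31 and 0.13, and Creb1 at 0.00, 0.01 and 0.16. In RNA-Seq 3 upstream values were at -0.5 or below: Rps6ka5 in GS/DA LRRK2 TG (-0.56) and Creb1 (-0.60) and Mef2c (-0.69) in LRRK2 KO. These were 1 of 29 beside 0.257% of all transcripts in GS/DA LRRK2 TG, and 2 of 31 beside 2.51% in LRRK2 KO. Of 8 late response genes of neurons, 6 were listed in the transgenic tables and 7 in the LRRK2 KO table, with medians of -0.05, 0.17 and -0.05. In footprints 1 of them passed 0.5, the pentraxin Nptx1 in GS/DA LRRK2 TG at 0.89, beside 42 of 8576 transcripts.

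Markers of cell types are given beside these changes, and their part in the changes was not tested. For spiny neurons, the median log2 footprint changes were -0.09 in GS LRRK2 TG, -0.22 in GS/DA LRRK2 TG and 0.10 in LRRK2 KO. In GS/DA LRRK2 TG, 2 of 11 were at -0.5 or below, Penk (-0.53) and Drd1a (-0.50), beside 0.326% of all transcripts. Their summed footprints in GS LRRK2 TG were 124101 and 85860.3 against a control mean of 113494. Library b, in which the Egr genes and Nr4a1 were low, thus also had the lower sum of spiny neuron markers. Most of the 11 were lower in library b, among them Ppp1r1b (38735 and 22161) and Penk (27036 and 16568). Rgs9 (9150 and 9764), Tac1 (3638 and 3790) and Pdyn (1890 and 2055) were higher there. The sums in GS/DA LRRK2 TG, over the 9 markers resolved in all libraries, were 73262 and 102019 against 93049.9 and 116581 in the control. The groups overlapped, but within the matched pairs, a with a and b with b, the sums of GS/DA LRRK2 TG were lower in both, as were Egr1, Egr2, Egr4 and Nr4a1. In LRRK2 KO they were 40281 and 26313 against 37879 and 26209 in WT.

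Cortical neuron markers differed most in GS/DA LRRK2 TG. The transgenic tables listed 4 of them, Tbr1, Slc17a7, Neurod6 and Cux2, and the most abundant was Slc17a7, the vesicular glutamate transporter VGLUT1. Summed footprints were 4335 and 2765 in GS/DA LRRK2 TG against 1792 and 1243 in the control, both transgenic libraries above both controls. Their summed RNA-Seq reads had the same order, with 4596 and 2599 against 1030.0 and 2432. Within this list Tbr1 was at 1.42, Slc17a7 at 1.30, Neurod6 at 1.05 and Cux2 at 0.28 on the log2 scale. The sums in GS LRRK2 TG were 575.0 and 2483 around a control mean of 1757, the reverse order of the libraries from that of spiny neuron markers.

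Choroid plexus and meninges markers, of which 2 of 6 were listed (Folr1, Kl, Kcnj13 and Igf2 were not), varied most, through Ttr. Their summed footprints were 682 and 1239 in GS LRRK2 TG against a control mean of 4239, 5525 and 1440.3 in GS/DA LRRK2 TG against 1489 and 17613 in the control, and 224 and 72.7 in LRRK2 KO against 155 and 143 in WT. Blood markers, 3 of 5 listed (Hbb-b2 and Hba-a1 were not) and led by Hba-a2, summed to 17771 and 11145 in GS LRRK2 TG against 15389, to 20612 and 14656 in GS/DA LRRK2 TG against 25199 and 18874, and to 2715.5 and 1537 in LRRK2 KO against 5375 and 1364. Astrocyte markers (6 of 6, led by Aldoc) stayed closer to the controls, with median log2 footprint changes of 0.07 in GS LRRK2 TG, 0.09 in GS/DA LRRK2 TG and -0.01 in LRRK2 KO, the order also used below. Their summed footprints were 29950.3 and 29840.1 against 28597, 20068 and 24808 against 19786 and 23939.5 over 5 resolved markers, and 9908 and 4473 against 9540.3 and 5031. Of 6 housekeeping genes all were listed, led by Actb, with medians of 0.00, 0.06 and 0.03. None was past 0.5 in footprints, as few of all transcripts were. In LRRK2 KO, however, their median log2 change was -0.33 in RNA-Seq, with 1 of 8 transcripts at -0.5 or below (2.51% of all). In TE it was 0.36, with 1 at 0.5 or above (4.06% of all). Summed over the housekeeping transcripts resolved in every library of a comparison, footprints were 271439 and 286278 in GS LRRK2 TG (8 transcripts), 5903 and 4299 in GS/DA LRRK2 TG against 6122 and 4732 (2 transcripts), and 60854 and 24311 in LRRK2 KO against 57751 and 25767 (5 transcripts). In GS LRRK2 TG a Gapdh transcript had 0 reads in library a and 21072.5 in library b, and the order of the sums there rests on it.

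How alike were the 9 genes across libraries? Over the 10 recovered footprinting libraries, centred within each table, Pearson's r with the mean of the other members was 0.925 for Egr4, 0.908 for Nr4a1, 0.901 for Egr2, 0.782 for Egr3 and 0.776 for Egr1. It was lower for Junb (0.576), Arc (0.521), Dusp1 (0.406) and Fos (0.190). The 5 transcripts most like the mean of the 9 genes, among 3126 whose group means all reached 8 on the log2 scale, were Hebp1 (r 0.975), Dusp6 (0.967), Bcl11b (0.942), 1110012J17Rik (0.915) and Mast3 (0.911). Dusp6 also stands in the list of other early response genes. The libraries share groups and tables, so these r describe the data and carry no p.

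Because Egr2, Egr4 and Nr4a1 ran together across libraries, promoters were read for motifs of the factors known to act on immediate early genes. RefSeq promoters of GRCm38.p6, which reach to 50 bases after the start, were matched for 6 of the 9 genes. Arc, Egr1 and Egr3 had none in the table used. The motifs searched, on both strands, were the CRE TGACGTCA, the short CRE TGACG (which every full CRE holds), the CArG box, the EGR site GCGTGGGCG or GCGGGGGCG, the ETS core CCGGAA and the TATA box TATAAA. The short CRE was in 6 of 6 genes, against 20.8% of 32851 promoters. The full CRE was in 1 (Dusp1, 1.79% of promoters), the CArG box in 1 (Egr2, 1.63%), the EGR site in 1 (Nr4a1, 3.47%), the ETS core in 2 (Egr2 and Nr4a1, 14.9%) and the TATA box in 2 (Fos and Junb, 13.6%), in Junb at the start itself and so not where such a box lies. A gene counted where any of its promoters held the motif, and the 6 genes had 10 promoters. The percentages count single promoters, so they are lower bounds for a share of genes counted in that way. A match describes letters in the window and shows no binding.

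For each gene 1 stretch that holds a short CRE is shown 5′ to 3′ on the strand of the gene, since this motif was common to all 6, with each motif in capitals (CGTCA is the short CRE on the other strand). A further short CRE of Egr2 lies outside the stretch shown. The stretches lie in GRCm38.p6 at chr6:85513682-85513778 (minus strand) for Egr4, chr15:101266601-101266822 (plus) for Nr4a1, chr10:67537793-67537822 (plus) for Egr2, chr12:85473749-85473874 (plus) for Fos, chr8:84978838-84978866 (minus) for Junb and chr17:26508596-26508675 (minus) for Dusp1. The stretch of Egr2 also holds a CArG box, that of Nr4a1 an ETS core and an EGR site on the other strand (CGCCCCCGC), that of Fos a TATA box and that of Dusp1 the full CRE.
Egr4: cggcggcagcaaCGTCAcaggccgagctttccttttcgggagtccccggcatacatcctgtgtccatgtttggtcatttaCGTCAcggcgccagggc
Nr4a1: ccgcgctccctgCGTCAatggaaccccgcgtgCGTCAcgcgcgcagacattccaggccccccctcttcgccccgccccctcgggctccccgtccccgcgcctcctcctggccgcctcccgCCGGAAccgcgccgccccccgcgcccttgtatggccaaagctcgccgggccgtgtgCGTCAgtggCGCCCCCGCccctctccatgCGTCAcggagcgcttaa
Egr2: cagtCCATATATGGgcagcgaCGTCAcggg
Fos: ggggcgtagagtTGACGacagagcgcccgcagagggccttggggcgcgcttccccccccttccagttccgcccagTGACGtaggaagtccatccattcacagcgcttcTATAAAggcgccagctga
Junb: gcttcctgacagTGACGcgagccgcctcc
Dusp1: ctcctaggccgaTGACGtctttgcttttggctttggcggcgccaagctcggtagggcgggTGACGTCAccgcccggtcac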

How the data were processed

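Per the labels, ribosome footprints and total RNA were sequenced from the striatum. The authors aligned reads to mm9 (CASAVA 1.8, TopHat2 2.0.11, Bowtie2 2.2.2), counted them in coding sequences and normalized them with DESeq 1.20, and the deposited signal values are group means of normalized reads, each table normalized separately. Deposited columns of TE, dTE and z-scores hold the authors' own comparison and were not used.

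A mean of 2 libraries is a sum of whole reads times fixed steps, so its reads were solved for in 10 of 12 columns (98.7% to 99.97% of transcripts resolved). As a check, every mean was displaced by a fixed small amount and solved again. Only 0.0418% to 1.74% of transcripts were then resolved. The solving was also run on simulated data, whose results are not given here. Group means were compared without a pseudocount. limma ran on log2 of normalized reads plus 10, with a trended prior, an interaction for TE and Benjamini-Hochberg adjustment, called at 0.05. Matched libraries as a block, leave-one-out and other limits were tried. The most alike transcripts were ranked by Pearson's r with the mean of the members over recovered footprinting libraries. Members and lists were chosen with earlier results of these data known. Python 3.11.15, numpy 2.4.6, pandas 2.3.3, scipy 1.17.1, matplotlib 3.10.9, R 4.3.3 and limma 3.58.1 were used. Ventral midbrain samples were not analysed here. Some marker genes are not reported here.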

Additional observations from a re-analysis of the deposited data

How the results depend on the processing

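No paired analysis was possible because no column carries a replicate number, other than with the pairs read from the values. limma was not run for GS LRRK2 TG and the mean of log2 libraries was not available there, since the control libraries were not recovered. Matching libraries by their values, limma called 155 transcripts for footprints in GS/DA LRRK2 TG, 6 with the opposite matching, 1 for RNA-Seq in GS/DA LRRK2 TG, and 10 for footprints and 12 for RNA-Seq in LRRK2 KO, each 0 without a block. With a log2 limit of 1 in place of 0.5, the counts of genes were 0 for footprints and 0 for RNA-Seq in GS LRRK2 TG, 0 and 1 in GS/DA LRRK2 TG, and 0 for RNA-Seq and 0 for TE in LRRK2 KO. Keeping only transcripts whose group means all reached 8 on the log2 scale, the RNA-Seq count was 1 in GS LRRK2 TG and 1 in LRRK2 KO, and the median TE change in GS/DA LRRK2 TG was -0.00646. After subtracting the median over all transcripts, the count was 1 for RNA-Seq in GS LRRK2 TG and 1 for footprints in LRRK2 KO, which was also 1 with the mean of log2 libraries. The TATA box was in 1 gene when the window was shortened to the bases nearest before the start.

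limma fits with 1 library left out assume that the lone library varies like the others. Medians and counts of genes past 0.5 rest on means and make no such assumption. Leaving out 1 library at a time gave these ranges of the median log2 change and of the count of genes past 0.5. In GS LRRK2 TG they were -0.74 to -0.07 and 0 to 5 for footprints, -1.98 to 0.38 and 2 to 9 for RNA-Seq, and -0.61 to 1.78 and 3 to 9 for TE. In GS/DA LRRK2 TG they were -0.61 to -0.19 and 2 to 5 for footprints, -1.81 to 1.13 and 3 to 9 for RNA-Seq, and -1.93 to 1.51 and 0 to 8 for TE. In LRRK2 KO they were -0.24 to 0.17 and 1 to 4 for footprints, -0.74 to 0.00798 and 0 to 6 for RNA-Seq, and -0.0684 to 0.57 and 0 to 5 for TE. limma called 2 to 42 transcripts for footprints in GS/DA LRRK2 TG and 0 in every other such fit. With 1 control RNA-Seq library alone, chosen after seeing the data, the median control log2 TE turned to -0.0141 with library b in the GS/DA table and to 0.257 with library a in WT. Of all alternatives 69 moved a count by over 1.5 times or a median beyond the spread between libraries or across 0, 1 turned the sign of a median past 0.5 and 155 did neither. That spread is wide, so some of the 155 also shifted a median by much, as the ranges show. Called changes of Egr4 footprints and Nr4a1 RNA-Seq in GS LRRK2 TG and of Egr1, Egr4 and Nr4a1 RNA-Seq in GS/DA LRRK2 TG changed sign when 1 library was left out. The cause of the differences between libraries was not tested.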
